A study of Mus musculus with 12 samples.

Results

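The genes described here are 7 grouped as somatostatin-class interneuron peptides with a binding protein: Sst, Cort, Npy, Crh, Crhbp, Tac2 and Pthlh. That is only the name of the group, as not all of them are particular to somatostatin cells. Which cells expressed each gene was not tested. They were taken by symbol from the 10245 gene symbols of an RNA-Seq table of hippocampal CA1, and they were selected on their FPKM in Tip60 cKO against control mice and on how these varied together within a genotype. Both are therefore given as a description, with no p-value, and a count of members that passed the test across all genes supports nothing here. All 7 had a mean of at least 0.5 FPKM and were among the 2416 genes of the table that entered the comparison across genes. FPKM corrects the reads of a gene for transcript length and library depth, so levels of different genes can be set side by side.

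Tip60 cKO mice (n = 6) carried the floxed Tip60 gene (f/f) together with the CaMKCreERT2 driver, and control littermates (n = 6) carried Tip60 f/f alone. Both groups were male C57BL/6N mice that received tamoxifen when 2 months old. Tissue was taken 10 days after tamoxifen ended, and each library held the dorsal CA1 of 1 mouse from both sides of the brain. The driver deletes Tip60, which encodes a lysine acetyltransferase, in excitatory neurons of the adult forebrain, so inhibitory neurons are not the cells it targets. Bulk tissue does not show which cells made the RNA of the genes described here, and this was not tested. Because only the Tip60 cKO mice carried Cre, loss of Tip60 and the presence of Cre cannot be told apart, and Kat5, the gene that encodes TIP60, was not analysed here, so the deletion was not checked in these libraries. Replicate numbers were given in the order of the sample records and only name a library.

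Inhibitory interneurons are a minority of hippocampal cells and release GABA, and many also release peptides from dense-core vesicles. Somatostatin cells mostly contact the dendrites of pyramidal neurons, and many of them also make neuropeptide Y. Peptide precursors are cut by prohormone convertases and act through G protein-coupled receptors, and transcription of several of them, Sst above all, is known to depend on neuronal activity through cAMP and the transcription factor CREB.

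The start of the Sst gene is where the cAMP response element, TGACGTCA, was first characterised, so the promoters were searched for it and for its core TGACG on both strands. RefSeq sequence (GRCm38.p6) was found for 6 of the 7 genes, all but Crh. The 120 bases before the start site are printed for the 4 of these genes that were higher in Tip60 cKO mice, each 5′ to 3′ on the strand of the gene, with TGACGTCA and any other match to TGACG or its reverse complement CGTCA in capitals.
Sst promoter (chr16:23890845-23890964, minus strand): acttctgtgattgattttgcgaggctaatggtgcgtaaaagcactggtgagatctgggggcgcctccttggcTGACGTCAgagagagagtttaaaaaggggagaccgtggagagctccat
Cort promoter (chr4:149126764-149126883, minus strand): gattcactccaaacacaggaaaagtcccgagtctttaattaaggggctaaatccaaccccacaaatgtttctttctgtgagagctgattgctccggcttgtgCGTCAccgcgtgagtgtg
Npy promoter (chr6:49822590-49822709, plus strand): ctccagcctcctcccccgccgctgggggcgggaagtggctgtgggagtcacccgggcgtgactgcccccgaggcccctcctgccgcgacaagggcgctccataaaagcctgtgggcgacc
Crhbp promoter (chr13:95444832-95444951, minus strand): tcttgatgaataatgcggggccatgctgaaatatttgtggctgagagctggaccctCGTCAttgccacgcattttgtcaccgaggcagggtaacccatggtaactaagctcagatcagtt

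In the 250 bases before the start, the palindrome TGACGTCA was present in Sst alone among the 6 genes, at bases -48 to -41 counted back from the start. It was present in 1.77% of the 27025 genes with a RefSeq promoter and in 2.64% of the 1667 tested genes with one. The core TGACG, which the palindrome contains, also occurred in Cort at -18 to -14 and in Crhbp at -64 to -60. In both it lay on the strand opposite to that of the gene, so the printed letters read CGTCA. The core was present in 19.8% of all genes and 26.9% of tested genes. The TATA box TATAAA was found in none of the 6 windows, against 14.3% of all genes and 8.16% of tested genes, although the letters tttaaaaa of Sst and cataaaa of Npy lie close to their starts. These matches describe the letters of the windows only.

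The peptide precursors come first. Sst encodes somatostatin, an inhibitory peptide. Its level had a lowest, median and highest value of 583, 619 and 661 FPKM in Tip60 cKO mice, against 298, 314 and 347 FPKM in controls. The lowest Tip60 cKO library lay far above the highest control, and the means were 616 ± 27.2 FPKM in Tip60 cKO mice and 317 ± 16.4 FPKM in controls (SD, n = 6 each), a ratio of 1.94. In bulk tissue, a different number of cells of a type and a different amount of RNA per cell cannot be told apart, for this gene or any other below. Whether the RNA came from inhibitory neurons or from the excitatory neurons that the driver targets was not tested either. By FPKM, Sst was the 8th most abundant of the 2416 genes in Tip60 cKO mice and the 21st in controls.

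Cort encodes cortistatin, a peptide related to somatostatin that binds the same receptors. It had a lowest, median and highest level of 7.34, 10.2 and 11.8 FPKM in Tip60 cKO mice, against 2.06, 2.65 and 3.52 FPKM in controls. Again no library of either genotype fell within the range of the other. The mean was 10.0 ± 1.59 FPKM in Tip60 cKO mice and 2.76 ± 0.551 FPKM in controls (SD, n = 6 each), and the ratio of 3.63 was the highest of the 7 genes. The longest run of bases that the annotated transcripts of Cort and Sst share is 21, so a read longer than that cannot match both exactly. Cenps, listed under its older symbol Apitd1, lies 357 bases from Cort on the same strand, and its level was 2.60 ± 0.211 FPKM in Tip60 cKO mice and 1.46 ± 0.188 FPKM in controls (log2 difference 0.55, adjusted p = 1.7e-06 by limma). The level of Cort divided by that of Apitd1 in the same library was 2.88 to 5.21 in Tip60 cKO mice and 1.43 to 2.25 in controls, so the ranges of this ratio did not overlap either.

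Npy encodes neuropeptide Y, an inhibitory peptide shared by several interneuron classes. Its lowest, median and highest levels were 132, 137 and 152 FPKM in Tip60 cKO mice, against 57.0, 63.95 and 72.8 FPKM in controls. The groups did not overlap. The mean was 140 ± 8.11 FPKM in Tip60 cKO mice and 64.6 ± 6.78 FPKM in controls (SD, n = 6 each), a ratio of 2.17.

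Crh encodes corticotropin-releasing hormone, a stress peptide that interneurons make in the hippocampus. It was the lowest of the 5 higher genes, with a lowest, median and highest level of 1.27, 1.63 and 1.76 FPKM in Tip60 cKO mice, against 0.314, 0.552 and 0.6885 FPKM in controls. The means were 1.58 ± 0.188 FPKM in Tip60 cKO mice and 0.538 ± 0.144 FPKM in controls (SD, n = 6 each), a ratio of 2.94. The groups stayed apart, but the values rest on roughly 59 to 77 reads a library in Tip60 cKO mice and 14 to 33 in controls.

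Crhbp encodes the secreted protein that binds corticotropin-releasing hormone and keeps it from its receptors. Its lowest, median and highest levels were 42.2, 46.1 and 50.2 FPKM in Tip60 cKO mice, against 12.5, 13.9 and 14.7 FPKM in controls. The means of 46.3 ± 2.91 FPKM in Tip60 cKO mice and 13.7 ± 0.902 FPKM in controls (SD, n = 6 each) gave a ratio of 3.38. The peptide and its binding protein were thus both higher, at similar ratios, and the level of Crhbp divided by that of Crh averaged 29.6 ± 3.497 in Tip60 cKO mice and 27.2 ± 7.74 in controls (SD, n = 6 each), with overlapping ranges.

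The remaining pair behaved otherwise. Tac2, which in mice encodes neurokinin B, had a lowest, median and highest level of 3.497, 4.465 and 5.35 FPKM in Tip60 cKO mice, against 3.38, 3.995 and 5.24 FPKM in controls. Its means were 4.43 ± 0.790 FPKM in Tip60 cKO mice and 4.18 ± 0.800 FPKM in controls (SD, n = 6 each), and the ranges were nearly the same. The ratio of these means was 1.06, and 0.976 with median-ratio scaling. Pthlh, which encodes parathyroid hormone-related protein, had 0.734, 0.968 and 1.202 FPKM in Tip60 cKO mice, against 0.680, 0.818 and 0.918 FPKM in controls, as lowest, median and highest values. Here 3 of the 6 Tip60 cKO libraries lay above every control and the other 3 lay within the control range.

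**Figure D1:**
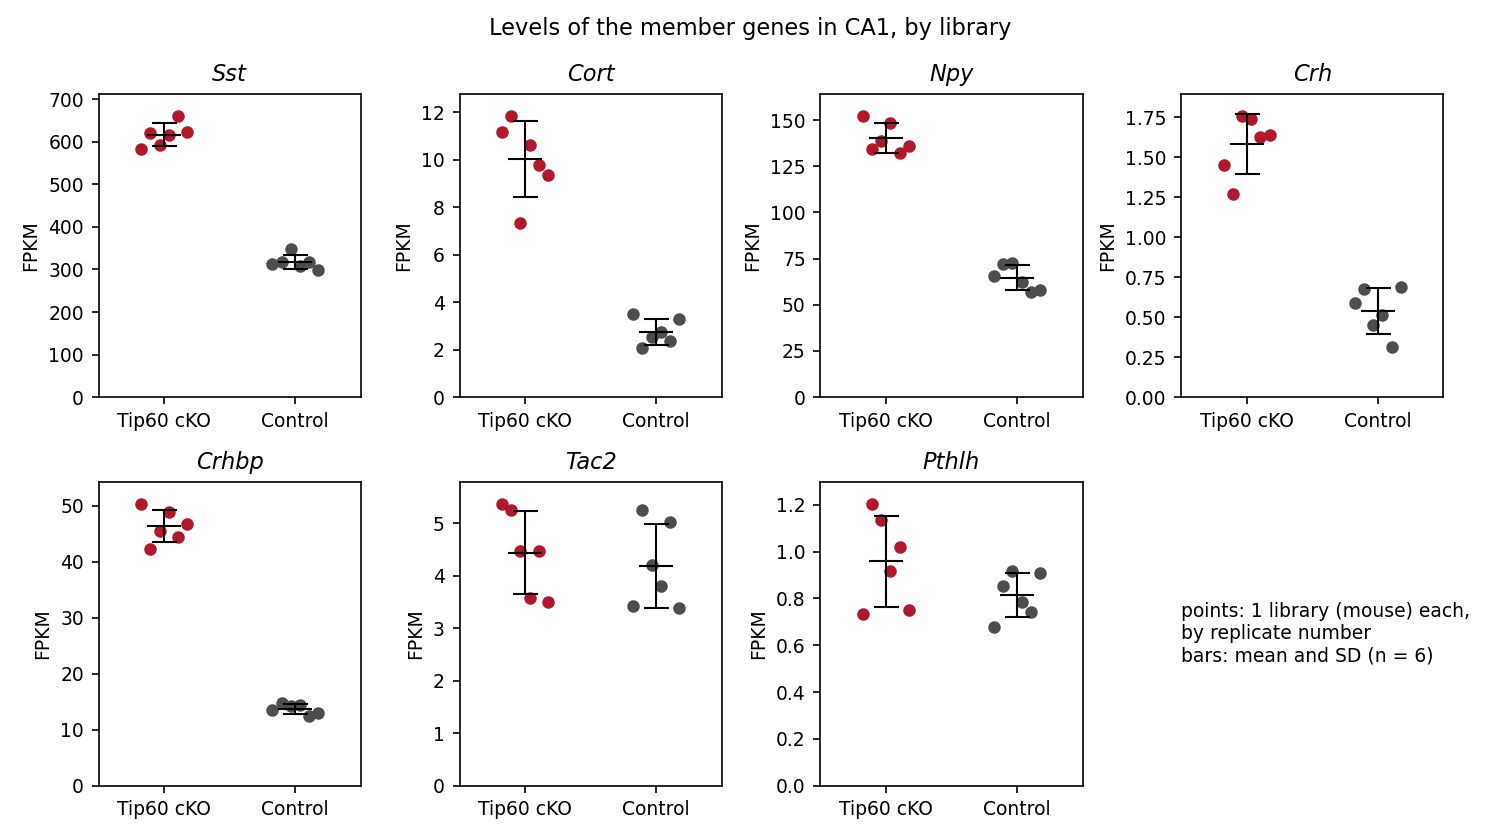
Level of each of the 7 genes (vertical axes, FPKM, each starting at 0) in the 6 Tip60 cKO (red) and 6 control (grey) libraries, with a point for each mouse and bars for the mean and SD. Sst, Cort, Npy, Crh and Crhbp show no overlap between the genotypes, whereas Tac2 (3.497 to 5.35 against 3.38 to 5.24 FPKM) and Pthlh do.

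A gene was called higher or lower if limma gave a Benjamini-Hochberg adjusted p below 0.05 over the 2416 genes and FPKM + 1 differed by more than 1.2-fold. By that rule 5 of the 7 were called higher and 0 lower in Tip60 cKO mice, beside 19.9% higher and 6.54% lower over all genes tested. The same 5 had every Tip60 cKO library above every control, beside 25.2% of all genes tested. Over all genes this came to 480 higher and 158 lower, to 285 and 279 after scaling libraries by their median ratio and to 342 and 225 after upper-quartile scaling, and the same 5 members were called higher under both. Since this contrast chose the genes, nothing is read from these counts. The median ratio of the 7 was 2.17, beside 1.10 over all genes tested. Ordered by that ratio, Cort was 31st, Crhbp 33rd, Crh 41st, Npy 78th and Sst 100th among the 2416, while Pthlh and Tac2 had ratios of 1.18 and 1.06.

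The sum of the 7 levels was mostly somatostatin in both genotypes. Sst made up 75.2 ± 1.68% of it in Tip60 cKO mice and 78.6 ± 1.078% in controls (SD, n = 6 each). Crhbp made up 5.66 ± 0.411% in Tip60 cKO mice and 3.40 ± 0.191% in controls, and Tac2 0.541 ± 0.102% in Tip60 cKO mice and 1.03 ± 0.186% in controls. Sst, Tac2 and Pthlh thus held a lower mean share, and Cort, Crh and Crhbp a higher mean share, of the summed level in Tip60 cKO mice. The share of Npy was 17.1 ± 1.22% in Tip60 cKO mice and 15.98 ± 1.01% in controls, a difference about as large as the SD.

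How far mice of a genotype differed varied between the genes. The coefficient of variation of Sst was 4.41% in Tip60 cKO mice and 5.18% in controls, where the approximate read numbers (13683 to 15673 and 7139 to 9103 a library) would give 0.817% and 1.11% from counting alone. Crhbp (6.29% in Tip60 cKO mice and 6.58% in controls) was nearly as even, and Npy was so in Tip60 cKO mice (5.78%) but less in controls (10.5%). Crh varied by 11.9% in Tip60 cKO mice and 26.7% in controls, with 11.9% and 19.8% from counting, and Pthlh by 20.3% in Tip60 cKO mice and 11.7% in controls, with 15.6% and 16.4%. For these low genes the spread between mice was close to, and for Pthlh in controls below, the error of counting reads, so differences between mice of a genotype could hardly be seen at this depth. Cort (15.9% in Tip60 cKO mice and 20.0% in controls) and Tac2 (17.8% and 19.1%) varied more than counting would give (6.60% and 12.3% for Cort, 9.92% and 9.96% for Tac2).

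The 7 genes were also set against Slc32a1, which encodes the vesicular GABA transporter that all inhibitory neurons use. Slc32a1 itself rose in Tip60 cKO mice, with 24.5 ± 1.78 FPKM there and 19.7 ± 0.623 FPKM in controls (SD, n = 6 each; log2 difference 0.30 ± 0.04, SE, adjusted p = 4.22e-05 by limma), but scaling the libraries by their median ratio took the difference to 0.19, under the fold threshold. A ratio within a library does not depend on how libraries are scaled. Per unit of Slc32a1, Sst was 25.2 ± 0.915 in Tip60 cKO mice and 16.2 ± 1.05 in controls, and Crhbp was 1.90 ± 0.221 in Tip60 cKO mice and 0.698 ± 0.0553 in controls (SD, n = 6 each). These ratios were 1.56 and 2.72 times as high in Tip60 cKO mice, and those of Cort, Crh and Npy were 2.90, 2.36 and 1.75 times as high. For the same 5 genes every Tip60 cKO library again lay above every control. Tac2 per Slc32a1 was 0.182 ± 0.0386 in Tip60 cKO mice and 0.212 ± 0.0389 in controls, and Pthlh 0.0393 ± 0.00859 in Tip60 cKO mice and 0.0414 ± 0.00433 in controls, with overlapping ranges for both.

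**Figure D2:**
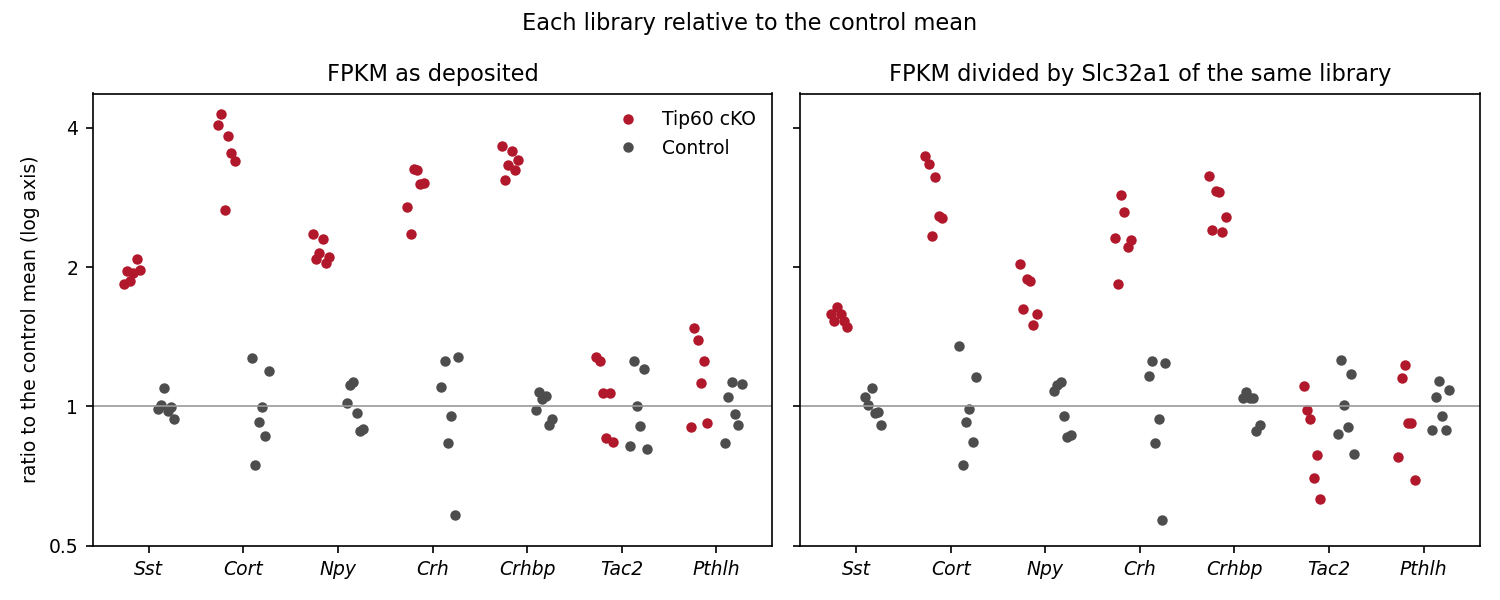
Each library's level divided by the control mean (vertical axis, log scale) for the 7 genes, from FPKM as deposited (left) and from FPKM divided by Slc32a1 of the same library (right), Tip60 cKO in red and controls in grey. On the right the separation of Sst, Npy, Cort, Crh and Crhbp is smaller but complete, and Tac2 and Pthlh scatter around 1 in both genotypes. The genes were chosen on their difference between genotypes, so nothing is read from the separation.

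Whether the genes varied together from mouse to mouse was described within each genotype, on log2(FPKM + 1), over 6 libraries and 21 pairs of genes. These correlations carry no p, and the points of a genotype share the depth and scaling of their library. Npy and Crhbp were the only pair with r above 0.5 in both genotypes, at 0.88 in Tip60 cKO mice (rho 0.89) and 0.82 in controls (rho 0.71). Leaving out the 2 libraries farthest from the median of Npy, r was 0.42 in Tip60 cKO mice, so the relation there rests largely on replicates 1 and 4, and 0.71 in controls without replicates 2 and 3. Over the deviations of all 12 libraries from their genotype means, r was 0.81 (rho 0.80).

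The level of Npy divided by that of Crhbp was 2.91 to 3.19 in Tip60 cKO mice, with a coefficient of variation of 3.04%, and 4.32 to 5.12 in controls, with 6.27%. The ratio was thus lower in Tip60 cKO mice with no overlap between the genotypes. In Tip60 cKO mice it varied less than either gene (5.78% for Npy and 6.29% for Crhbp), and in controls about as much as Crhbp (6.58%) and less than Npy (10.5%).

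The other pairs showed no shared pattern. Of the 21, 13 had r of opposite sign in the genotypes, 6 were positive in both and 2 negative in both, and the median r of the deviations over 12 libraries was -0.04. Sst and Npy had r of -0.72 (rho -0.89) in Tip60 cKO mice and 0.72 (rho 0.66) in controls. Without the 2 libraries farthest from the median of Sst these became -0.11 in Tip60 cKO mice and 0.25 in controls, so both rest on those libraries (replicates 1 and 5, and replicates 3 and 6). Cort and Tac2 had r of 0.33 (rho 0.54) in Tip60 cKO mice and -0.95 (rho -0.94) in controls, and without the 2 libraries farthest in Cort r was 0.60 and -0.94. Crhbp and Pthlh had -0.81 (rho -0.89) in Tip60 cKO mice, or -0.48 without replicates 1 and 2, and 0.27 (rho 0.26) in controls. The spread of Crh and of Pthlh between mice was close to the error of counting reads. Pairs with either gene, Crhbp and Pthlh among them, could therefore hardly show a pattern.

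**Figure D3:**
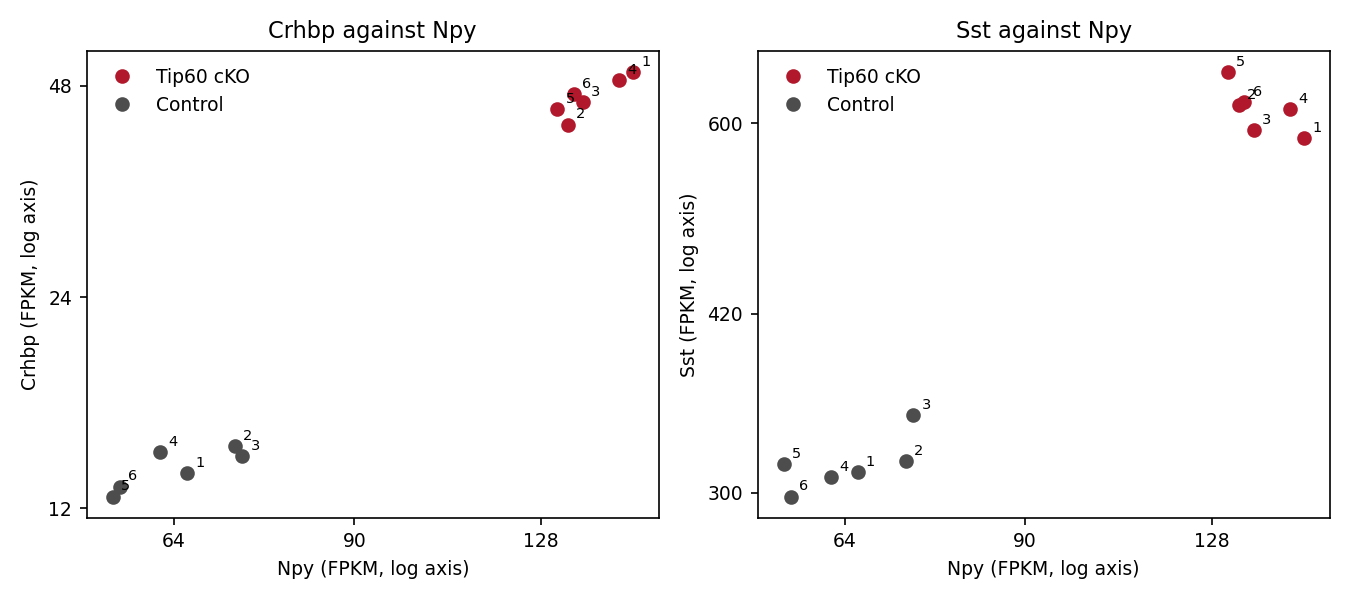
Level of Crhbp (left) and Sst (right) against Npy in each mouse (all axes FPKM, log scale), Tip60 cKO in red and controls in grey, numbered by replicate. Crhbp follows Npy within each genotype (r of 0.88 in Tip60 cKO mice and 0.82 in controls), while Sst runs against Npy in Tip60 cKO mice and with it in controls. Without the 2 libraries farthest in Npy, r of Crhbp and Npy was 0.42 in Tip60 cKO mice and 0.71 in controls. Without the 2 farthest in Sst, r of Sst and Npy was -0.11 in Tip60 cKO mice and 0.25 in controls.

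Genes outside the set were ranked by the correlation of their deviations with those of each member above 2 FPKM, among 1510 genes above 2 FPKM and leaving out predicted and RIKEN genes. The members themselves were ranked in the same way, and Crhbp came first of 1514 for Npy, as Npy did for Crhbp. For Sst the 5 most alike were Fam189a2 (r of 0.75), Stk40, Mrgpre, Pigyl and Kcne1l (0.71), and Npy came 224th. For Cort they were Mrfap1 (0.80), Tmem55a, Pcbd1, Mfap3 and Isg20l2 (0.75). For Npy they were Ndfip2 (0.80), Zfp937, Dcdc2c, Olfr856-ps1 and Fut8 (0.69), and for Crhbp Cd9 (0.71), Edil3, Trim59, Pibf1 and Pigy (0.68). For Tac2, Hist1h2bf (0.80) came first, and Gpr17, a receptor of oligodendrocyte precursors, Lhfp and Ifitm2 (0.71) were also among the 5. The highest of many correlations over 12 libraries is large in any table, so no more than the order is described.

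Receptors of the peptides were hardly covered by the table, and absence from it says nothing of a gene's level in CA1. Of 18 listed, 9 were in the table and only Sstr1, a somatostatin receptor, reached a mean of 0.5 FPKM. Its level was 1.87 ± 0.243 FPKM in Tip60 cKO mice and 1.86 ± 0.162 FPKM in controls (SD, n = 6 each; log2 difference 0.00 ± 0.06, SE, adjusted p = 0.957 by limma). Among the 8 below the minimum, Tacr3, the receptor of neurokinin B, had 0.0877 ± 0.0223 FPKM in Tip60 cKO mice and 0.0413 ± 0.0220 FPKM in controls, with 5 of 6 Tip60 cKO libraries above every control. Tacr1, the receptor of substance P, had 0.322 ± 0.0434 FPKM in Tip60 cKO mice and 0.276 ± 0.0408 FPKM in controls. Crhr2, which binds urocortins and corticotropin-releasing hormone, had 0.216 ± 0.0516 FPKM in Tip60 cKO mice and 0.304 ± 0.0574 FPKM in controls. The other 5 (Sstr5, Ghsr, Ppyr1, Npy6r and Tacr2) had means of 0.0156 (Ppyr1) to 0.09995 (Ghsr) FPKM in Tip60 cKO mice and 0.00722 (Ppyr1) to 0.1297 (Ghsr) FPKM in controls, and the ranges of all 8 overlapped.

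Of 57 other neuropeptide precursors, 34 were in the table and 7 were tested. Of these, 3 were called higher, none lower and 4 neither, beside 19.9% higher and 6.54% lower over all genes tested. The median log2 difference of the 7 was 0.09, the same as over all genes tested. Pomc, the precursor of melanocortins and beta-endorphin, had 1.62 ± 0.114 FPKM in Tip60 cKO mice and 0.901 ± 0.0932 FPKM in controls (log2 difference 0.46 ± 0.05, SE, adjusted p = 8.79e-07 by limma). Adm, which encodes the vasodilator adrenomedullin, had 0.776 ± 0.118 FPKM in Tip60 cKO mice and 0.465 ± 0.102 FPKM in controls (adjusted p = 0.000904), a log2 difference of 0.28 that was under the fold threshold with either other scaling and without Tip60 cKO replicate 3 or 6 or control replicate 6 (0.25 to 0.26). Gcg, the glucagon precursor, had 0.988 to 2.79 FPKM in Tip60 cKO mice and was listed at 0 in 5 of the 6 controls. Gcg reached the minimum of 0.5 FPKM only through the Tip60 cKO libraries and so had to differ. Adm, with a control mean below 0.5 FPKM, also reached it only through the Tip60 cKO libraries. The calls of Gcg and Adm are therefore no support for the count. Apln, Edn3, Calca and Rln1 had overlapping groups, with ratios between 0.914 for Rln1 and 1.16 for Calca.

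Of 26 genes of prohormone processing and dense-core vesicles, 7 were in the table and 6 were tested. Of these, 3 rose, 1 fell and 2 (Cpm and Qpct) were not called, beside 19.9% higher and 6.54% lower over all genes tested. Syt9, a synaptotagmin that senses calcium at vesicles, had 6.28 ± 0.768 FPKM in Tip60 cKO mice and 0.536 ± 0.0595 FPKM in controls, a ratio of 11.7 (log2 difference 2.24 ± 0.06, SE, adjusted p = 1.03e-12 by limma). Chga, which encodes the granule protein chromogranin A, rose to 67.8 ± 4.36 FPKM in Tip60 cKO mice, against 49.5 ± 1.60 FPKM in controls (adjusted p = 4.64e-07). Cpd, a carboxypeptidase that trims peptide precursors, had 13.5 ± 0.963 FPKM in Tip60 cKO mice and 11.04 ± 0.531 FPKM in controls (adjusted p = 0.000243), and its log2 difference of 0.26 was under the fold threshold with either other scaling and without any of Tip60 cKO replicates 1, 4 and 6 or control replicates 2, 3 and 5 (0.24 to 0.26). Pcsk1n, whose product proSAAS inhibits the convertase PC1/3, fell to 69.2 ± 10.9 FPKM in Tip60 cKO mice, against 94.5 ± 19.2 FPKM in controls (adjusted p = 0.0171), with overlapping ranges.

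Of 40 genes of interneuron identity, 9 were in the table and 4 were tested. Slc32a1 was called higher, beside 19.9% of all genes tested, but not with median-ratio or upper-quartile scaling. Dlx2 and Sp9, transcription factors of the interneuron lineage, had ratios of 1.24 and 1.19, and Calb2, which encodes calretinin, had 3.15 ± 0.872 FPKM in Tip60 cKO mice and 3.13 ± 0.794 FPKM in controls. These 3 were not called. The log2 differences of the 4 were 0.00 to 0.30, a range that takes in Tac2 (0.07) and Pthlh (0.11), and those of the 5 members chosen for being higher were 0.75 to 1.69.

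For the CREB family, its coactivators and inducible cAMP genes, 3 of 20 were in the table. Only Sik1, a kinase induced by cAMP, was called higher, beside 19.9% of all genes tested. It rose to 1.74 ± 0.153 FPKM in Tip60 cKO mice, against 0.930 ± 0.246 FPKM in controls (log2 difference 0.51 ± 0.08, SE, adjusted p = 4.2e-05 by limma). Crtc3, a CREB coactivator, and Creb3 were not called, with ratios of 0.887 and 1.03. Among 15 tested activity-induced genes, 11 rose and Klf10 fell, beside 19.9% higher and 6.54% lower over all genes tested. With either other scaling 10 rose, and Btg2 was no longer called, as without any of 8 of the libraries. Egr2, among the 11, averaged 1.82 FPKM in Tip60 cKO mice and 0.237 FPKM in controls. Egr2 reached the minimum of 0.5 FPKM only through the Tip60 cKO libraries, so its call is no support for the count. With a minimum of 2 FPKM, 10 of 14 rose. The most abundant of these genes in Tip60 cKO mice were Rgs4 (75.03 ± 10.4 FPKM there and 38.4 ± 2.76 FPKM in controls), Egr1 and Nptx2.

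**Figure D4:**
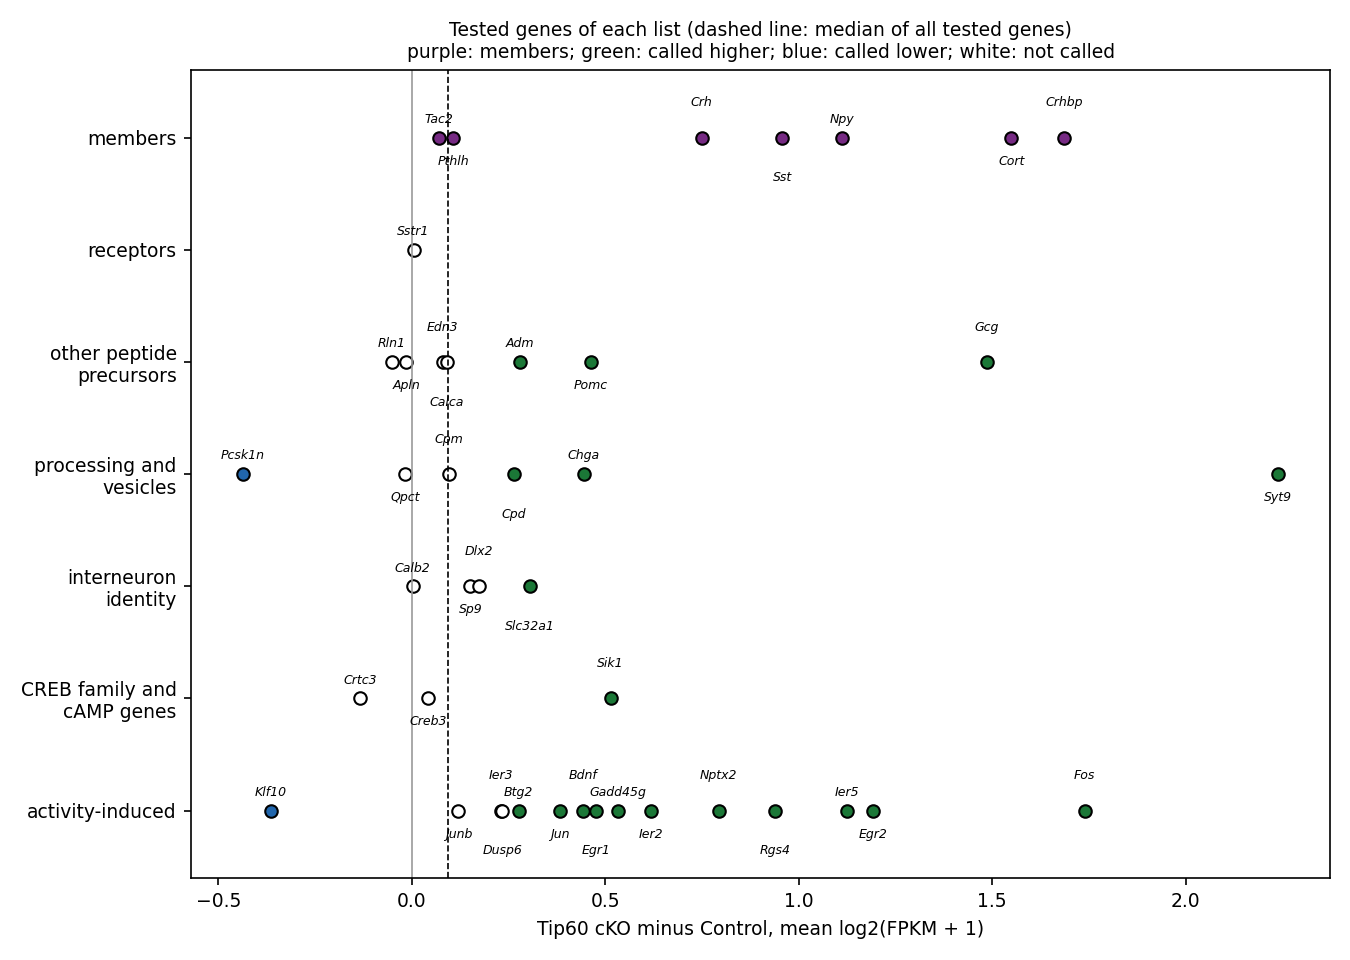
Difference in mean log2(FPKM + 1), Tip60 cKO minus control, for each tested gene (horizontal axis) of the 7 members and of the 6 gene lists (rows), with a dashed line at the median of all genes tested (0.09). Green genes were called higher, blue lower and white neither. The members, in purple, were chosen on this difference and lie at 0.07 (Tac2, -0.03 with median-ratio scaling) to 1.69, while the interneuron identity genes lie between 0.00 and 0.30.

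Libraries had an estimated 31.6 to 35.96 M reads in Tip60 cKO mice and 31.7 to 38.2 M in controls (M, mega). The tissue label could be checked only against Pou3f1 and Dcn of 10 listed CA1 pyramidal genes, both well above 0 in every library, of which Dcn is also a fibroblast gene and is counted in that list too, and these summed to 53.5 to 69.5 FPKM in Tip60 cKO mice and 29.6 to 35.96 FPKM in controls. Summed dentate granule cell markers (3 of 12 in the table) ranged over 1.18 to 8.17 FPKM in Tip60 cKO mice and 1.62 to 12.3 FPKM in controls. CA2 and CA3 markers (2 of 12) ranged over 12.2 to 20.0 FPKM and 18.2 to 27.6 FPKM, so neither list was higher in the Tip60 cKO mice. Of these 2, Cacng5 was called lower (ratio 0.501, adjusted p = 1.7e-06 by limma) and Bok was not called (0.779). Whether the dissection differed between the genotypes was not tested. Microglia markers (6 of 14) summed to 118 to 154 FPKM in Tip60 cKO mice and 107 to 125 FPKM in controls. C1qa, C1qc and Tyrobp had higher means in Tip60 cKO mice (ratios of 1.33, 1.265 and 1.36). Cx3cr1, Tmem119 and P2ry13 had lower means there (0.975, 0.857 and 0.781). Meninges and fibroblast markers (6 of 10) summed to 30.0 to 38.9 FPKM in Tip60 cKO mice and 20.9 to 30.2 FPKM in controls. The ratio was 1.65 for Dcn, 1.58 for Mgp and 1.19 for Igf2, but 0.998 for Lum, 1.00 for Ogn and 1.07 for Col3a1. The part of these cell types in the members' levels was not tested. Replicate 1 of the Tip60 cKO mice stood apart in choroid plexus markers (6 of 10), at 206 FPKM, with 1.02 to 4.40 FPKM in the other Tip60 cKO libraries and 0.906 to 2.87 FPKM in controls. Without it the log2 differences were 0.97 for Sst, 1.66 for Crhbp and 0.02 for Tac2, beside 0.96, 1.69 and 0.07 with it, again as a description.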

How the data were processed

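The authors deposited FPKM values, 1 per gene row and library, for 12 CA1 libraries made from total RNA with a TruSeq kit. Build mm9, TopHat2 2.0.8, bedtools 2.16.2, FastQC 0.10.0 and CASAVA 1.8.2 are named by the submitters' processing notes. For the program that made FPKM, the read length and the strandedness, the sources used here give nothing. Without strand, reads of overlapping genes on opposite strands cannot be told apart (Trim55 lies 979 bases from Crh on the other strand).

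Of 10383 rows, 100 exact repeats were removed and rows of a symbol summed. Small RNA genes (531), genes at 0 throughout (2414) and 41 genes with isolated 0 values, which can be failed estimates, were set aside, and 4 genes with 0 values near 0 throughout a genotype were kept. A mean minimum of 0.5 FPKM left 2416 genes, whose log2(FPKM + 1) values were fitted with limma 3.58.1 (R 4.3.3), using a prior that follows the mean, robust variances and Benjamini-Hochberg adjustment. This scale understates the change of low genes. Depth and approximate reads came from the value that 1 read takes in 2229 single-transcript genes. P-values test the difference between the genotypes against the spread between mice, with 6 mice a genotype.

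The 7 genes and all gene lists were chosen with earlier results of these data known. Named were every member, list genes that were called with up to 5 others by mean FPKM, the 5 genes most like each member above 2 FPKM and the 3 most abundant activity-induced genes. Btg2, Egr2 and Klf10 are outside this rule, as are Apitd1, Tacr1, Tacr3, Crhr2, Pou3f1, Dcn, Bok and Cacng5, and were chosen after their values were seen. The same holds for the named microglia and fibroblast markers. A gene of the interneuron list and a gene most like Tac2 are not reported here. Alternatives were a pseudocount of 0.1, no minimum, a minimum of 2 FPKM, median-ratio and upper-quartile scaling, limma without prior trend and robust variances, and each library left out.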

Additional observations from a re-analysis of the deposited data

How the results depend on the processing

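The median log2 difference of the 7 genes was 0.96, and it was 1.12 with a pseudocount of 0.1, 1.11 over the members left by a minimum of 2 FPKM, 0.84 with median-ratio scaling and 0.89 with upper-quartile scaling. Tac2 went to -0.027 with median-ratio scaling. Over all genes, median-ratio scaling gave 285 higher and 279 lower, against 480 and 158. Interneuron identity genes called higher numbered 1, against 0 with either other scaling and 2 (Dlx2 added) with a pseudocount of 0.1. With a minimum of 2 FPKM, fewer genes were tested and 0 other neuropeptide precursors and 0 CREB family genes were called higher. The median r between members over deviations was 0.12 with median-ratio and 0.10 with upper-quartile scaling, and -0.17 to 0.035 with a library left out. At this depth, genes near 0.5 FPKM rest on few reads. No paired analysis was possible because the labels give no replicate numbers, and those used here only follow the order of the records.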
